A study of Mus musculus with 12 samples.

Results

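Collagens are the proteins that give muscle its connective tissue, and each is built from 3 chains wound into a triple helix. The genes for those chains were taken as every gene measured on the array whose only symbol has the form Col, number, a, number, such as Col1a1. This gave 44 genes of 19752, of which 31 had a mean level over all arrays at or above the median of all genes (7.15 as log2 intensity) and 13 lay below it. The names alone decided which genes belonged, although the set was chosen with earlier results of these data known. Where a gene had several probe sets, called transcript clusters, the one with the highest mean was used, which concerned 2 collagen genes, Col6a5 and Col6a6.

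The study measured whole tibialis anterior muscle of C57BL/6 mice, labelled 8 weeks of age, after injury by cardiotoxin, a snake venom toxin that destroys muscle fibres and sets off regeneration. All mice received diphtheria toxin from the day of injury on, and either amphiregulin (AREG, a growth factor of the EGF family) or phosphate-buffered saline (PBS). At day 4 after injury both groups were Foxp3-DTR-, mice without the diphtheria toxin receptor, in which the toxin should spare regulatory T cells. At day 8 both groups were Foxp3-DTR+, mice in which Foxp3-expressing cells carry that receptor and are killed by the toxin. Each of the 4 groups had 3 arrays, and the labels do not say whether the 3 came from separate animals, so that p-values measure only the spread between these samples. Day and genotype changed together and cannot be told apart.

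The fibril-forming collagens (types I, III and V in muscle) assemble into the cables that carry tension, and type V chains set how thick the fibrils grow. FACIT collagens such as types XII and XIV sit on the surface of these fibrils, and type VI forms beaded filaments that link fibrils to the cell surface. Type IV builds the sheet of the basement membrane around every muscle fibre and capillary, with the multiplexins XV and XVIII beside it. In injured muscle, fibroblasts and fibro-adipogenic progenitors make most of the fibrillar chains, and a provisional matrix is laid down early and remodelled as fibres regrow.

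Promoter sequence is shown for a chain of each fibril-forming type in muscle, types I, III and V, because the results below are ordered around these fibrils. RefSeq promoter windows on GRCm38.p6 were on hand for 35 of the 44 genes and for 8 of the 12 chains that were lower on all AREG arrays than on all PBS arrays at day 4. Each sequence holds the 150 bases just before the earliest annotated start, on the plus strand, and capitals mark a match to a core promoter motif. Those searched, on both strands, were the CCAAT box with the letters CCAAT, the TATA box with the letters TATAAA, and the GC box with the letters GGGCGG. Col1a2 lies at chr6:4505468-4505617 with CCAAT from -109 to -105, Col3a1 at chr1:45311388-45311537 with TATAAA from -117 to -112, and Col5a1 at chr2:27886231-27886380 with GGGCGG from -29 to -24, counted from the start.
Col1a2: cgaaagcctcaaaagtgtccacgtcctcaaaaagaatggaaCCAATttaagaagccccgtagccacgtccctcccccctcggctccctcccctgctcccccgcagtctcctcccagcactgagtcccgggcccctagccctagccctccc
Col3a1: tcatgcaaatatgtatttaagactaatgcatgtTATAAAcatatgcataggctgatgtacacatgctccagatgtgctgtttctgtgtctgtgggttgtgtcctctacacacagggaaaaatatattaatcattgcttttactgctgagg
Col5a1: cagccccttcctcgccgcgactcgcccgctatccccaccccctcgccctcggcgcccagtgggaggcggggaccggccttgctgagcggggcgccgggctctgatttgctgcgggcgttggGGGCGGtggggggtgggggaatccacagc

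Each of these stretches holds a match to 1 of the 3 motifs and to no other. In the 250 bases before the start, CCAAT was found in 13 of the 35 collagen genes (37.1%), against 37.5% of all 27025 genes with a window. TATAAA was found in 5 of the 35 (14.3%), against 14.3% of all genes. GGGCGG, the core of the GC box, was found in 21 of the 35 (60%), against 35.4% of all genes. Among the 8 chains lower without overlap at day 4 it was in 5 (62.5%), and among the other 27 collagen genes in 16 (59.3%). These matches describe letters in a window and not sites in use. Several chains also lie next to each other on the chromosome in the RefSeq order: Col3a1 with Col5a2, Col4a1 with Col4a2, Col4a3 with Col4a4, Col4a5 with Col4a6, Col6a1 with Col6a2, Col6a4 to Col6a6 in a row, and Col9a1 with Col19a1.

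The arrays had median intensities from 133.7 to 143.2. All 10 genes on the list of mature muscle fibre markers lay above the median level, as the tissue label requires, and 0 of 6 cartilage and bone markers passed the test in any comparison of AREG with PBS. Foxp3 itself lay below the median level (6.59 on average over the 12 arrays as log2 intensity), with a log2 difference of -0.02 ± 0.11 (SE) between the PBS groups at day 8 and day 4, so whole-muscle arrays gave no check of the depletion. A pair of arrays stood apart. Replicate 1 of AREG at day 4 had the narrowest spread of values (interquartile range 2.189 log2 units, against 2.373 to 2.723 on the others), and it was the highest of the 12 arrays for 10 of the 13 dim collagen genes. Replicate 3 of AREG at day 8 was the lowest of the 12 arrays for 16 of the 44 collagen genes, all of them among the 31 brighter ones. For the day 8, between-day and mean comparisons, counts of collagen genes past a threshold or with separate groups are given with and without it. So are the collagen values it moved by more than 1.5 times. Pathway lists are given on all 12 arrays only.

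**Figure D1:**
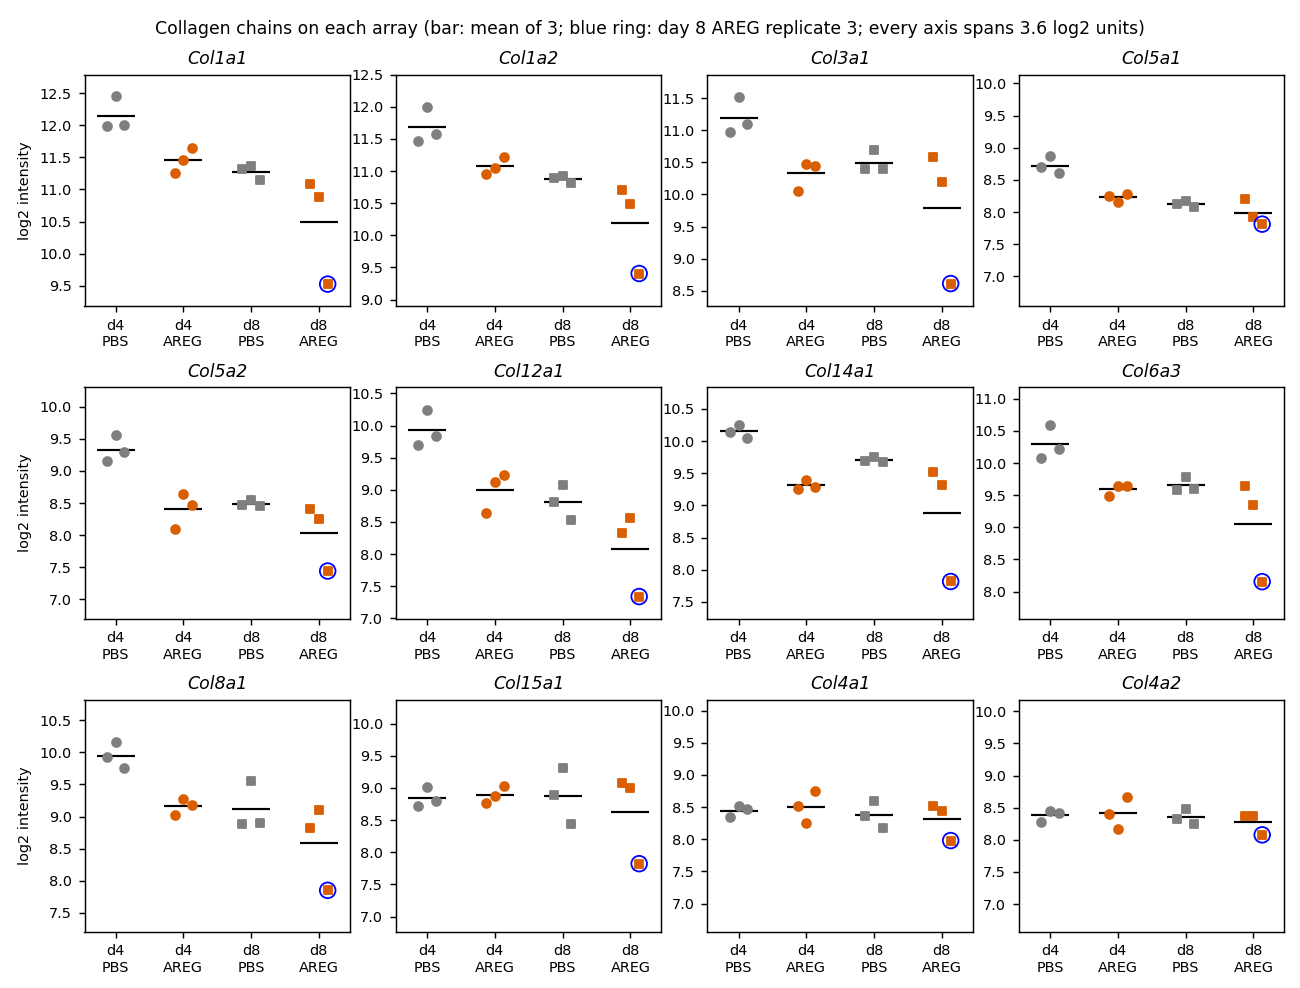
Log2 intensity (vertical axis, the same span in every panel) of 12 collagen genes on each array, with PBS in grey, AREG in orange, day 4 as circles, day 8 as squares and the mean of 3 as a bar; blue rings mark replicate 3 of AREG at day 8. Col1a1, Col5a2 and Col14a1 lie lower on all 3 AREG arrays at day 4, Col4a1 and Col4a2 overlap, and the ringed array lies lowest in every panel.

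At day 4, in mice without the toxin receptor, 2 fibril-forming chains fell in muscle given AREG, and further chains of fibrils, fibril surfaces and beaded filaments had lower values without passing the test. Of the 44 genes, 12 had all 3 AREG arrays below all 3 PBS arrays, against 12% of all genes, and 1 had all 3 above, against 10.2%. The test used throughout was limma's moderated test on log2 intensity over all 12 arrays, two-sided, with Benjamini-Hochberg adjustment over all genes and a threshold of 0.05. By it 2 collagen genes fell, Col5a1 and Col5a2, and 0 rose, beside 2.11% of all genes that fell. Both were among the 31 collagen genes at or above the median level. With only genes at or above that level tested, 7.62% of them passed in either direction. That share comes from a separate fit and counts both directions, so it stands only roughly beside these 2 of 31. Among all 44 collagen genes the counts at an unadjusted p under 0.05 were 9 lower, against 9.73% of all genes, and 1 higher, against 7.3%. Over the whole set the directions were even, with 23 genes lower and 21 higher and a median log2 difference of -0.02 against 0.04 for all genes.

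Type V collagen, the nucleating chain of fibrils, gave both calls. Col5a2 read 8.09, 8.65 and 8.48 on the AREG arrays at day 4 and 9.15, 9.56 and 9.29 on the PBS arrays. The highest AREG array lay below the lowest PBS array, and the log2 difference was -0.93 ± 0.21 (SE; limma adjusted p = 0.0334). Col5a1 read 8.25, 8.16 and 8.29 with AREG and 8.70, 8.87 and 8.60 with PBS. Its difference was smaller at -0.49 ± 0.12 (limma adjusted p = 0.0446), and the groups did not overlap. Col5a3, a minor type V chain, had a difference of -0.24 ± 0.13 and did not pass the test, although its AREG arrays (7.44 to 7.86) lay just below its PBS arrays (7.89 to 7.97).

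Type I and type III chains, which make up most of the fibril, differed in the same direction by 1.5- to 1.8-fold without passing the test. Col1a1, the alpha 1 chain of type I, read 11.26, 11.47 and 11.64 with AREG and 11.98, 12.45 and 12.003 with PBS. Col1a2, its partner chain, read 10.96, 11.05 and 11.21 with AREG and 11.46, 11.997 and 11.58 with PBS. Col3a1, the type III chain of pliable early fibrils, read 10.06, 10.47 and 10.45 with AREG and 10.97, 11.52 and 11.09 with PBS. The groups did not overlap for any of these 3 genes, and replicate 2 was the highest PBS array for each. Their log2 differences were -0.69 ± 0.29 for Col1a1 (limma adjusted p = 0.225), -0.61 ± 0.24 for Col1a2 (adjusted p = 0.205) and -0.86 ± 0.34 for Col3a1 (adjusted p = 0.202). Of the 11 fibril-forming genes 6 were lower without overlap. The others (Col2a1, Col11a1, Col11a2, Col24a1 and Col27a1), chains found chiefly in cartilage and other tissues, lay between -0.07 and 0.10. Col11a1, the type XI chain of cartilage fibrils, read 7.81, 7.56 and 7.62 with AREG and 7.51, 7.56 and 7.62 with PBS, with a difference of 0.10 ± 0.11.

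Of the 9 FACIT genes 0 passed the test, and 2 were lower without overlap. Col12a1, which is found on fibrils under tension, read 8.63, 9.12 and 9.22 with AREG and 9.69, 10.25 and 9.83 with PBS, a log2 difference of -0.93 ± 0.26 (limma adjusted p = 0.0680). Col14a1, which regulates early fibril growth, read 9.26, 9.40 and 9.28 with AREG and 10.15, 10.26 and 10.05 with PBS. Within each group its 3 arrays lay close together, and its difference was -0.84 ± 0.30 (adjusted p = 0.142); its SE was 0.11 without replicate 3 of AREG at day 8. The 7 other FACIT genes lay between -0.18 and 0.17, and Col20a1 was the 1 collagen gene with all AREG arrays above all PBS arrays (0.17 ± 0.10).

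None of the type VI chains passed the test at day 4. Col6a1 read 9.32, 9.28 and 9.43 with AREG and 9.62, 9.80 and 9.70 with PBS. Col6a2 read 9.77, 9.74 and 9.78 with AREG and 10.12, 10.15 and 10.03 with PBS. Col6a3, the large chain that completes the trimer, read 9.48, 9.64 and 9.65 with AREG and 10.08, 10.60 and 10.22 with PBS. The groups of all 3 genes were separate, with log2 differences of -0.36 ± 0.24, -0.34 ± 0.23 and -0.71 ± 0.27 (limma adjusted p = 0.514, 0.542 and 0.175). Col6a4, Col6a5 and Col6a6, chains that can stand in for Col6a3, had differences of 0.05 to 0.25. For Col6a6 the difference was 0.25 ± 0.11 (adjusted p = 0.286), from 8.56, 8.23 and 8.34 with AREG against 8.01, 8.26 and 8.12 with PBS.

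Among the short-chain network collagens, Col8a1, a chain of vessel walls and remodelling tissue, read 9.03, 9.27 and 9.18 with AREG and 9.93, 10.17 and 9.75 with PBS. Its log2 difference was -0.79 ± 0.25 (limma adjusted p = 0.108) with separate groups, whereas Col8a2 and Col10a1 lay at 0.05 and -0.15.

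The basement membrane chains differed little. Col4a1 read 8.52, 8.25 and 8.75 with AREG and 8.34, 8.51 and 8.47 with PBS, and Col4a2, its partner in the common type IV trimer, read 8.40, 8.17 and 8.66 with AREG and 8.28, 8.45 and 8.41 with PBS. The groups overlapped for both, with differences of 0.07 (95% interval -0.28 to 0.41) and 0.03 (-0.26 to 0.32). None of the 6 type IV genes was lower without overlap, and none had a difference beyond 0.21 in size. The smallest p among them was that of Col4a3 (0.17 ± 0.11).

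Col15a1, a multiplexin of muscle and capillary basement membranes, read 8.76, 8.88 and 9.02 with AREG and 8.72, 9.02 and 8.80 with PBS, a difference of 0.04 ± 0.27. Col18a1, the source of endostatin, read 7.53, 7.27 and 7.50 with AREG and 7.58, 7.86 and 7.48 with PBS, a difference of -0.20 ± 0.14. The 4 transmembrane collagens lay between -0.12 and 0.09 (Col23a1 with the smallest p), the anchoring fibril chain Col7a1 at -0.03, and Col26a1 and Col28a1 at -0.11 and 0.18.

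Within an array, the balance of chains was compared as a log2 ratio, for 6 pairs of chains at each day and between the PBS groups; with 3 arrays against 3 an exact permutation test cannot go below p = 0.1, so none of these can pass 0.05. Col1a1 over Col4a1 was 2.73 to 3.22 with AREG at day 4 and 3.54 to 3.94 with PBS, a shift of -0.76 (exact two-sided permutation p = 0.1). The fibril chain was therefore lower relative to the basement membrane chain on every AREG array. Col6a3 over Col6a1 shifted by -0.35 at day 4 (exact p = 0.1) and by 0.04 at day 8 (exact p = 0.7; 0.08 without replicate 3 of AREG). Col5a2 over Col5a1 shifted by -0.44 with overlapping groups (exact p = 0.2), and Col3a1 over Col1a1 by -0.17 (exact p = 0.2). For partner chains of one trimer, Col1a1 over Col1a2 shifted by -0.08 (exact p = 0.2) and Col4a1 over Col4a2 by 0.03 (exact p = 0.1).

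At day 8 Col1a1 over Col4a1 was 1.55 to 2.57 with AREG and 2.77 to 2.97 with PBS, a shift of -0.72 (exact permutation p = 0.1) that was -0.40 without replicate 3 of AREG. Col5a2 over Col5a1 shifted by -0.32 (exact p = 0.1), and by -0.11 without that array. Col3a1 over Col1a1 shifted by 0.08 (exact p = 0.7; 0.18 without it), Col1a1 over Col1a2 by -0.10 (exact p = 0.5; -0.01 without it) and Col4a1 over Col4a2 by 0.01 (exact p = 0.8; 0.08 without it). Between the PBS groups, day 8 minus day 4, the shifts were -0.80 for Col1a1 over Col4a1, -0.34 for Col6a3 over Col6a1 and -0.24 for Col5a2 over Col5a1 (exact p = 0.1 for each). The others were 0.17 for Col3a1 over Col1a1, -0.06 for Col1a1 over Col1a2 and -0.03 for Col4a1 over Col4a2 (exact p = 0.2, 0.3 and 0.7). With 18 such tests, none could pass an adjustment.

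The day 4 calls depended on single arrays. With replicate 3 of AREG at day 8 left out, an array that has no part in the day 4 means, the differences stayed as they were and the shared error shrank. Then 9 collagen genes passed (Col1a1, Col1a2, Col3a1, Col5a1, Col5a2, Col6a3, Col8a1, Col12a1 and Col14a1), beside 4.76% of all genes lower. That array was the lowest of the 12 for each of these 9 genes. Leaving it out therefore shrinks their error in advance, so the count of 9 is no separate support for the day 4 differences. Without replicate 1 or 3 of AREG at day 4, or without any 1 of the PBS replicates at day 4, 0 passed, and 1 passed without replicate 2 of AREG at day 4 or without replicate 2 of AREG or any 1 of the PBS replicates at day 8. With the replicate number as a block, 4 passed (Col5a1, Col5a2, Col8a1 and Col12a1), beside 4.63% of all genes in either direction. In whole muscle, fewer cells of a type and less RNA per cell cannot be told apart.

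**Figure D2:**
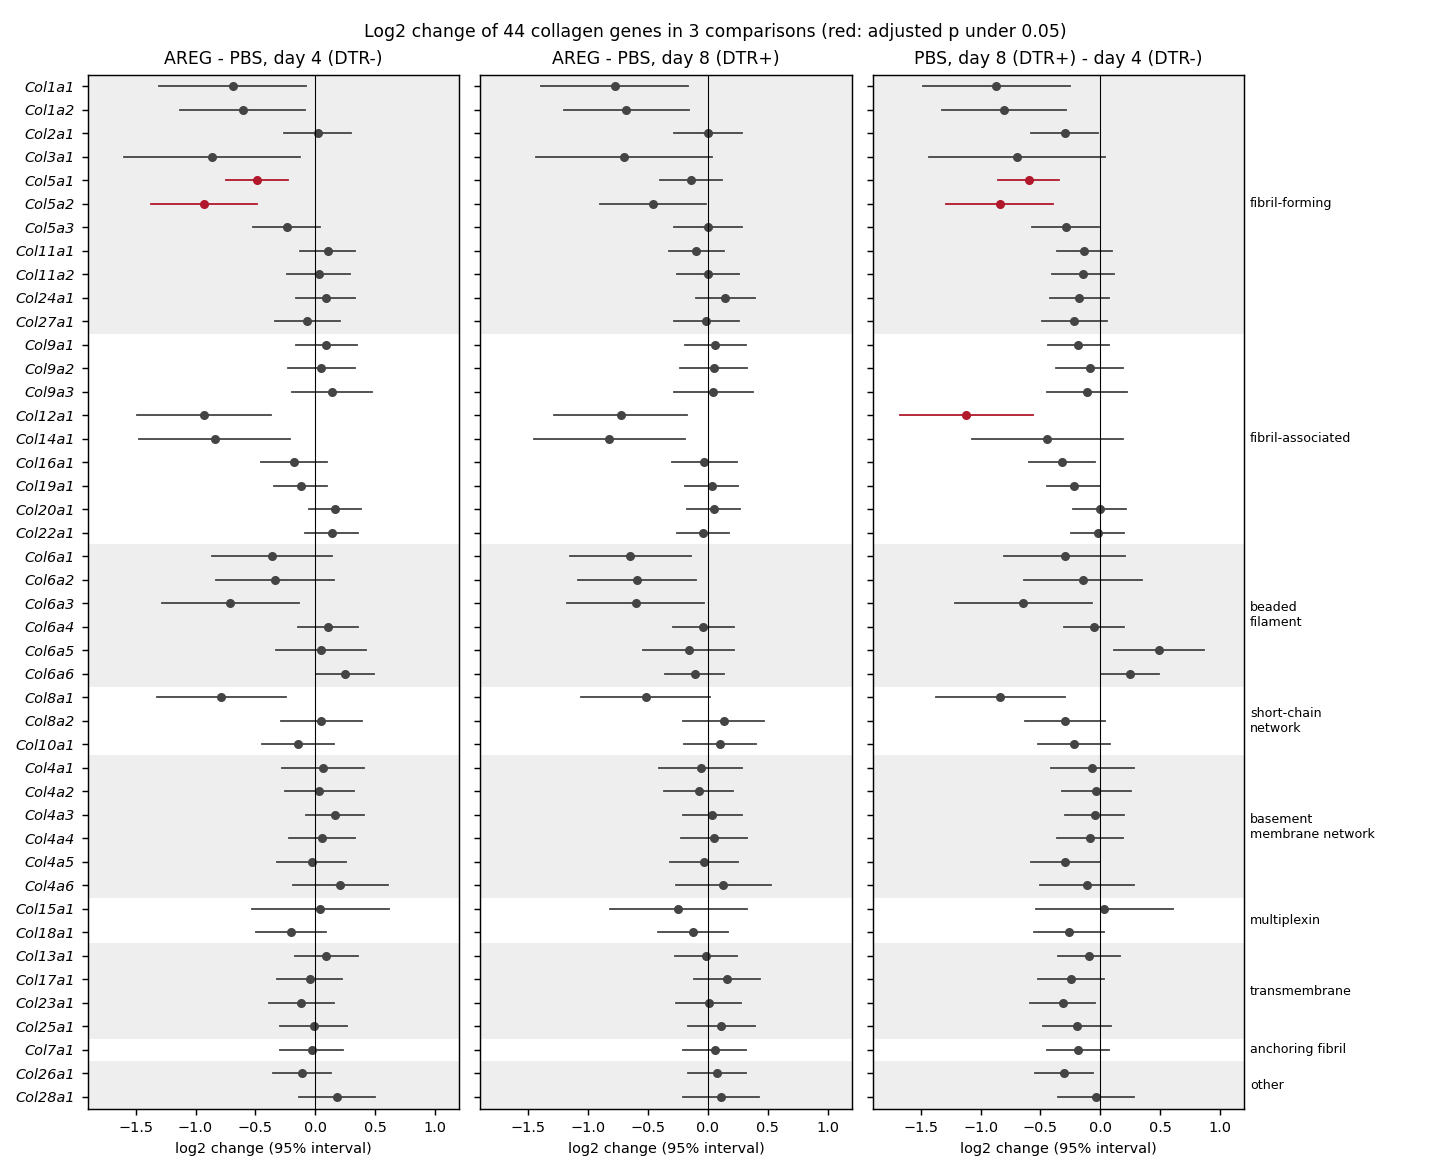
Log2 change (horizontal axis) with 95% interval for all 44 collagen genes, grouped by class, in panels for the AREG effect at day 4, the AREG effect at day 8, and day 8 minus day 4 under PBS; red marks an adjusted p under 0.05. Col12a1 lies at -0.93, -0.73 and -1.12 and Col5a2 at -0.93, -0.46 and -0.84, while Col4a1 lies at 0.07, -0.06 and -0.07.

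Part of the enzymes that fold and finish collagen fell at day 4. Their lists were drawn up by role, with earlier results of these data known. Of 18 measured genes for folding and hydroxylation, 6 fell and 0 rose, beside 2.11% of all genes that fell. The prolyl hydroxylase subunit P4ha3 fell by 1.31 ± 0.24 and the lysyl hydroxylase Plod2 by 1.16 ± 0.21 on the log2 scale (limma adjusted p = 0.0198 for both). The prolyl isomerase Ppib fell by 0.91 ± 0.20 and the hydroxylase subunit P4hb by 0.57 ± 0.13. Of 4 measured crosslinking genes 3 fell: Lox by 1.05 ± 0.20, Loxl1 by 0.86 ± 0.21 and Loxl3 by 0.84 ± 0.16, all lysyl oxidases that join chains in the fibril. Of 11 genes for secretion and propeptide processing 1 fell, the procollagen peptidase Adamts14, by 0.72 ± 0.16.

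Of 10 genes that break collagen down 3 fell, the collagenase Mmp13 by 0.93 ± 0.21, the membrane protease Mmp14 by 0.98 ± 0.23 and the lysosomal cathepsin Ctsb by 0.74 ± 0.16. Of 8 profibrotic ligands and targets 2 fell, the ligand Tgfb3 by 0.63 ± 0.14 and Acta2, the actin of myofibroblasts and smooth muscle, by 0.87 ± 0.17. Among 11 fibril-binding proteoglycans and glycoproteins and among 9 collagen receptors, 0 passed in either direction at day 4. In all 7 lists 0 genes rose, beside 156 of all 19752 genes that rose by the test. By direction alone, 16 of the 18 folding genes and 6 of the 11 fibril-binding genes were lower.

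Markers of cell types were read beside these results as lists. By the same test 417 of all 19752 genes fell at day 4 and 156 rose. The summed linear intensity of 11 macrophage markers was 5396 to 7356 with AREG at day 4 and 12040 to 15367 with PBS, and 8 of the 11 fell. Proliferation markers fell in 6 of 9 genes and satellite cell and myoblast markers in 3 of 7. The sum of 10 fibroblast and fibro-adipogenic progenitor markers was 8407 to 9507 with AREG and 8741 to 9531 with PBS, so these ranges overlapped. By the test 0 of the 10 fell and 1 rose, while by direction 6 of the 10 were lower. Tendon markers had 0 of 6 calls. Adipocyte markers moved the other way, with 2 of 6 higher, the lipid droplet genes Cidec and Plin1 (0.73 ± 0.16 and 0.64 ± 0.16); their sum was 2532 to 3261 with AREG and 1806 to 2531 with PBS. Of 6 pericyte and smooth muscle markers 1 fell, Acta2, and the sum was 4054 to 5022 against 5704 to 6326. By direction 3 of the 6 were lower. Rgs5 and Myh11 were higher without overlap (0.51 ± 0.15 and 0.52 ± 0.17), without passing the test (limma adjusted p = 0.0782 and 0.116). Endothelial and Schwann cell markers had 0 calls among 8 and 4 genes. The part of the macrophage, proliferation, myoblast and adipocyte shifts, and of Acta2, in the collagen differences was not tested.

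At day 8, after depletion of regulatory T cells, 0 collagen genes passed the test, beside 0.00506% of all genes lower, which is 1 gene. At an unadjusted p under 0.05, 8 collagen genes were lower and 0 higher, against 5.57% of all genes lower. Without replicate 3 of AREG at day 8 that count was 1, Col14a1, against 3.01% of all genes. Groups were lower without overlap for 6 genes (Col1a1, Col1a2, Col5a2, Col6a1, Col6a6 and Col14a1), against 7.14% of all genes, and higher for 1 (Col17a1, 0.16 ± 0.13), against 7.06%. Genes with separate groups must stay separate when an AREG array is left out, so for these genes that was fixed in advance. No further collagen gene became separate without that array, where 2 AREG arrays were set against 3 and the shares of all genes were 12.9% and 10.6%. In the set as a whole 24 genes were lower and 20 higher, with a median of -0.02 against 0.01 for all genes.

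Much of the size at day 8 came from replicate 3 of AREG. For Col1a1 the AREG arrays read 11.08, 10.88 and 9.53 and the PBS arrays 11.32, 11.36 and 11.14. For Col1a2 they were 10.70, 10.48 and 9.41 against 10.89, 10.93 and 10.81. For Col3a1 they were 10.58, 10.19 and 8.61 against 10.39, 10.70 and 10.39. Replicate 1 of AREG thus lay just below all PBS arrays for Col1a1 and Col1a2, and among them for Col3a1. Replicate 2 lay below all PBS arrays for each of these genes. The log2 differences with all arrays were -0.78 ± 0.29, -0.68 ± 0.24 and -0.70 ± 0.34 (limma adjusted p = 0.630, 0.626 and 0.662). Without that array they were -0.29 ± 0.16, -0.29 ± 0.15 and -0.11 ± 0.18, and 0 collagen genes passed the test.

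Type V and FACIT chains showed the same dependence. Col5a2 read 8.40, 8.25 and 7.44 with AREG and 8.46, 8.55 and 8.46 with PBS, and its difference moved from -0.46 ± 0.21 to -0.17 ± 0.16 without that array. Col5a1 read 8.21, 7.92 and 7.81 against 8.12, 8.17 and 8.08, a difference of -0.14 ± 0.12 that was -0.06 ± 0.13 without it. Col12a1 read 8.33, 8.56 and 7.34 against 8.81, 9.07 and 8.53, and its difference moved from -0.73 ± 0.26 to -0.36 ± 0.20. Col14a1, lower on every AREG array, read 9.53, 9.32 and 7.82 against 9.70, 9.76 and 9.67. Its difference moved from -0.82 ± 0.30 to -0.29 ± 0.12.

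Type VI and the remaining chains followed. Col6a1 read 9.30, 9.04 and 7.95 with AREG and 9.47, 9.40 and 9.36 with PBS. Col6a2 read 9.996, 9.47 and 8.62 against 10.13, 9.88 and 9.87, and Col6a3 read 9.64, 9.35 and 8.15 against 9.59, 9.78 and 9.60. Only Col6a1 of these 3 had separate groups; the differences of -0.65, -0.59 and -0.60 became -0.24, -0.22 and -0.15 without replicate 3. Col8a1 read 8.83, 9.10 and 7.85 against 8.88, 9.55 and 8.90, and -0.52 became -0.15. Col15a1 read 9.08, 8.999 and 7.82 against 8.90, 9.31 and 8.44, and its difference changed sign, from -0.25 ± 0.27 to 0.16 ± 0.19.

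Basement membrane chains again lay near 0 at day 8. Col4a1 read 8.52, 8.44 and 7.98 with AREG and 8.36, 8.59 and 8.17 with PBS, and Col4a2 read 8.37, 8.37 and 8.08 against 8.32, 8.48 and 8.24. The differences were -0.06 ± 0.16 and -0.08 ± 0.14, and without replicate 3 they were 0.11 ± 0.16 for Col4a1 and 0.02 ± 0.14 for Col4a2. Col18a1 read 7.41, 7.24 and 7.11 against 7.20, 7.57 and 7.37 (-0.13 ± 0.14, and -0.06 ± 0.15 without replicate 3), and Col11a1 read 7.38, 7.39 and 7.22 against 7.42, 7.50 and 7.35 (-0.10 ± 0.11, and -0.04 ± 0.12 without it). Col6a6 read 8.30, 8.30 and 8.20 against 8.41, 8.40 and 8.31, lower on every AREG array by a small margin (-0.11 ± 0.11). The transmembrane chains lay between -0.01 and 0.16, and between -0.06 and 0.19 without replicate 3.

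On replicate 3 of AREG at day 8 the macrophage marker sum was 4587, against 9148 and 11872 on the other AREG arrays and 10182 to 14039 on the PBS arrays of that day. Its fibroblast and progenitor sum was 6939, against 9905 and 10031 on the other AREG arrays and 9512 to 10248 with PBS, and its tendon sum 3801, against 5577 and 6086 and 6278 to 7314. The muscle fibre sum of 97405 lay near the other AREG arrays of that day (98204 and 99664). The part of these levels in the collagen values of that array was not tested.

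**Figure D3:**
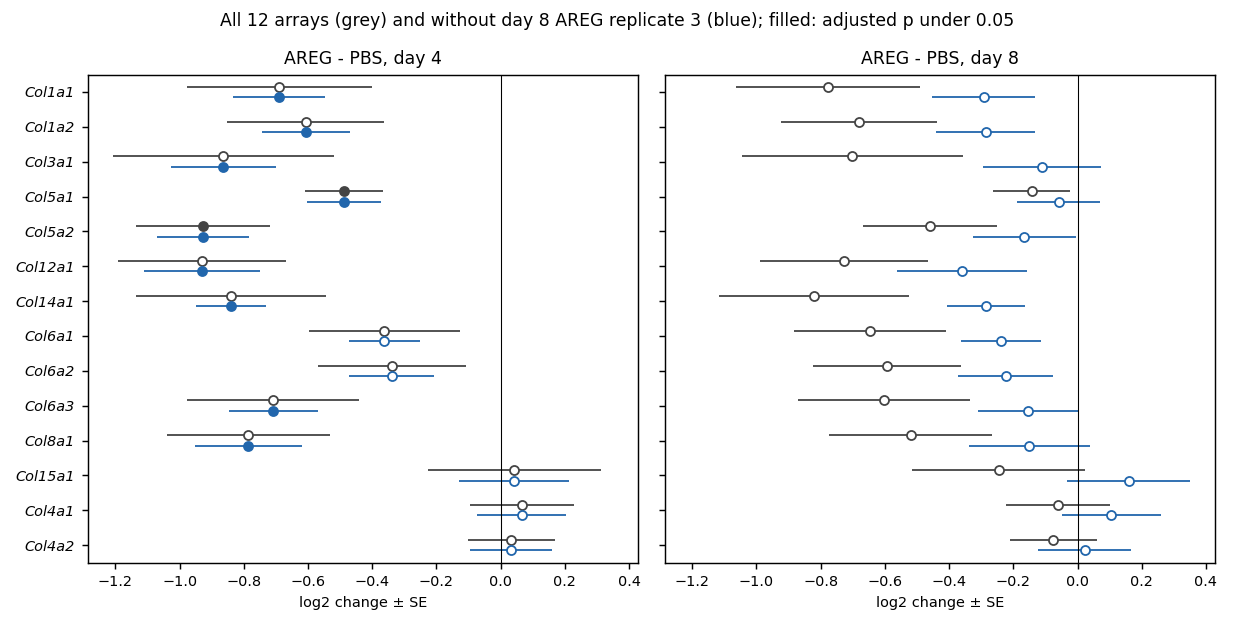
Log2 change ± SE (horizontal axis) of AREG against PBS at day 4 and day 8 for 14 collagen genes, with all 12 arrays in grey and without replicate 3 of AREG at day 8 in blue; filled points have an adjusted p under 0.05. At day 4 the points stay in place and 9 are filled without that array, while at day 8 Col1a1 moves from -0.78 to -0.29 and Col3a1 from -0.70 to -0.11. The array left out was the lowest of the 12 for each of those 9 genes, which shrinks their error in advance.

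A difference between the AREG effects at the 2 days was tested directly. With all arrays it passed for 0 collagen genes, beside 0% of all genes, and 1 had an unadjusted p under 0.05, against 5.87% of all genes. That gene was Col6a6, with 0.25 at day 4 and -0.11 at day 8 (difference -0.36 ± 0.16, limma adjusted p = 0.821). For Col1a1 the difference between days was -0.09 (95% interval -0.95 to 0.78) and for Col5a2 0.47 (-0.16 to 1.09), so effects of unequal size were not excluded. Leaving out replicate 3 of AREG at day 8 changed this picture. Still 0 genes passed after adjustment, but 6 had an unadjusted p under 0.05, all with a positive difference (Col3a1, Col5a1, Col5a2, Col6a3, Col8a1 and Col14a1), against 10.5% of all genes in either direction and 4.66% with a positive one. Col6a6 was no longer among them (-0.32 ± 0.17). The difference turned sign for Col1a1, to 0.40 ± 0.21, and was 0.76 ± 0.22 for Col5a2, 0.75 ± 0.25 for Col3a1 and 0.55 ± 0.16 for Col14a1. On those 11 arrays the AREG differences of these chains were nearer 0 at day 8 than at day 4, without passing the adjusted test. The array left out was the lowest of the 12 for each of these chains. Leaving it out therefore raises their day 8 AREG means in advance, so these counts do not test a difference between the days.

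Averaged over both days, AREG went with lower levels of 3 collagen genes by the test and 0 higher, beside 2.99% of all genes lower. Col5a2 fell by 0.69 ± 0.15 (limma adjusted p = 0.0231), Col12a1 by 0.83 ± 0.19 (adjusted p = 0.0278) and Col14a1 by 0.83 ± 0.21 (adjusted p = 0.0430). Col1a2 at -0.64 ± 0.17 (adjusted p = 0.0541), Col5a1 at -0.32 ± 0.09 (0.0557), Col8a1 at -0.65 ± 0.18 (0.0585) and Col1a1 at -0.73 ± 0.20 (0.0604) lay just above the threshold and did not pass. Without overlap at both days, 5 genes were lower (Col1a1, Col1a2, Col5a2, Col6a1 and Col14a1), against 2.3% of all genes. At an unadjusted p under 0.05 the counts were 11 lower, against 11.7% of all genes, and 0 higher, against 6.27%; without replicate 3 of AREG at day 8 they were again 11 and 0, and the mean effects were -0.55 ± 0.11 for Col5a2, -0.65 ± 0.14 for Col12a1 and -0.56 ± 0.08 for Col14a1. The 5 genes separate at both days must stay so without it, and no further collagen gene joined them, against 2.7% of all genes. The count of calls was 8 with the replicate number as a block (Col1a1, Col1a2, Col3a1, Col5a2, Col6a3, Col8a1, Col12a1 and Col14a1) and 11 without replicate 1 of AREG at day 8. It was 6 without replicate 3 of AREG at day 8 (Col1a1, Col1a2, Col5a2, Col6a3, Col12a1 and Col14a1). That array was the lowest of the 12 for each of these 6 genes, so leaving it out shrinks their error in advance. The count was 0 without replicate 1 of AREG or replicate 2 of PBS at day 4 and without replicate 1 or 3 of PBS at day 8. It was 1 without replicate 3 of AREG at day 4 or replicate 2 of PBS at day 8.

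Of the collagen pathway lists, folding and hydroxylation had 7 of 18 genes lower for this mean effect, crosslinking 3 of 4, degradation 4 of 10 and profibrotic ligands and targets 2 of 8. Of all genes 2.99% were lower by the same test. Among fibril-binding genes 1 of 11 fell, Fn1, the fibronectin on which collagen fibrils assemble, by 0.74 ± 0.19. P4ha3 (fell by 1.16 ± 0.17) and Loxl3 (fell by 0.70 ± 0.11) were lower without overlap at both days.

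Between the PBS groups, day 8 with depletion had lower collagen levels than day 4 without it. These PBS arrays at day 4 are the same ones that served the day 4 comparison, so the 2 comparisons are not independent. Of the 44 genes 41 were lower and 3 higher, with a median log2 difference of -0.21 against -0.04 for all genes. Separate groups were found for 22 genes lower, against 14.2% of all genes, and for 2 higher, against 9.17%. By the test 3 fell and 0 rose, beside 1.15% of all genes that fell.

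The chains that fell were Col12a1 by 1.12 ± 0.26 (limma adjusted p = 0.0341), Col5a1 by 0.60 ± 0.12 (adjusted p = 0.0139) and Col5a2 by 0.84 ± 0.21 (adjusted p = 0.0464). Col1a1 lay at -0.87 ± 0.29 (0.169), Col1a2 at -0.80 ± 0.24 (0.123), Col3a1 at -0.70 ± 0.34 (0.415) and Col8a1 at -0.84 ± 0.25 (0.122). Of the 11 fibril-forming genes 9 were lower on all 3 day 8 arrays. Among type VI chains, Col6a3 lay at -0.64 ± 0.27, and Col6a5 and Col6a6 were higher without overlap, at 0.49 ± 0.18 (adjusted p = 0.218) and 0.25 ± 0.11 (0.379). For Col6a5 the PBS arrays read 7.23, 6.92 and 7.04 at day 4 and 7.84, 7.37 and 7.45 at day 8. Col4a1 and Col4a2 lay at -0.07 ± 0.16 and -0.03 ± 0.14, and Col15a1 at 0.03 ± 0.27.

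The dim genes shared the direction, 13 of 13 being lower with a median of -0.18, and most of them are chains of other tissues such as Col9a1 and Col10a1. Without replicate 3 of AREG at day 8 the count of calls rose to 9 (Col1a1, Col1a2, Col3a1, Col5a1, Col5a2, Col6a3, Col8a1, Col12a1 and Col14a1), beside 1.86% of all genes lower. That array is in neither PBS group and was the lowest of the 12 for each of these genes. Leaving it out therefore shrinks their error in advance, so the rise is no separate support. The count was 0 without replicate 2 of PBS at day 4 or replicate 1 or 3 of PBS at day 8. It was 1 without replicate 1 or 3 of PBS at day 4 or replicate 2 of PBS at day 8. With the replicate number as a block it was 5, of which 4 were lower and Col6a5 higher. In the same comparison the log2 differences were -1.46 ± 0.24 for P4ha3, -1.44 ± 0.20 for Lox, -1.51 ± 0.17 for Acta2 and -1.31 ± 0.21 for Mmp13, all past the test. Satellite cell and myoblast markers fell in 4 of 7 genes and macrophage markers in 0 of 11, and the part of the former in the collagen differences was not tested.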

How the data were processed

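RNA of whole muscle was measured on Affymetrix Mouse Gene 1.0 ST arrays. The tools named in the submitters' processing notes are Affymetrix Power Tools and RMA, without versions. What the authors deposited is linear intensity for 24922 clusters. Its log2 was used, unfiltered and with nothing added; 21425 clusters had 1 symbol in the platform's gene table and gave 19752 genes, tested with limma 3.58.1 in R 4.3.3 on 4 group means. RMA compresses differences of dim genes, and 3 arrays a group limit the precision. Replicate numbers are shared between groups. At day 4 the residuals of same-numbered arrays correlated (0.558, 0.201 and 0.511), so a pairing is possible there. At day 8 (-0.198, 0.123 and -0.003) and between the PBS groups (-0.117, 0.059 and -0.068) the values lay on both sides of 0. The labels do not state a pairing. The main test did not use the numbers, and the replicate block was an alternative. Named were all genes past the threshold and the chains textbooks give for muscle matrix. Of other classes the gene with the smallest p was named, and of each pathway list at most 4 genes. Rgs5 and Myh11 were named because they went the other way from Acta2. The collagen genes and lists were chosen with earlier results of these data known. Alternatives covered array weights, filter, pseudocount, normalisation, centring, cluster choice, moderation, block and each array left out. The class list's Col21a1 was not analysed here. The test was checked on simulated data.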

Additional observations from a re-analysis of the deposited data

How the results depend on the processing

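No collagen gene past the threshold on all 12 arrays changed sign under any alternative, but the counts past it moved, and so did the share of all genes past it. At day 4 the count was 2. It became 9 on the 6 arrays of the comparison alone (4.75% of all genes called), 12 with array quality weights (26.9%) and 4 with the replicate block (4.63%); leaving out 1 array gave 0 to 9. At day 8 it was 0, 1 with array weights (Col6a2; 6.03% of all genes), and 0 with any 1 array left out. For the difference between days it was 0, and 3 with array weights (11.3%). For the mean effect it was 3, then 12 with array weights (24.8%), 7 with only genes at or above the median level (8.46%) and 8 with the replicate block (5.59%); leaving out 1 array gave 0 to 11. For the PBS groups it was 3, then 9 on the 6 arrays alone (3.84%), 10 with array weights (8.35%), 1 with a pseudocount of 32 (2.07%) and 5 with the replicate block (2.46%); leaving out 1 array gave 0 to 9. The block left the counts at day 8 and for the difference at 0, and between the PBS groups the numbers are only shared. Array weights ran from 0.167 (replicate 1 of AREG at day 4) to 7.43 (replicate 2 of AREG at day 8). The cause of each move was not tested.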

Other observations

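Col6a5 and Col6a6 have 2 clusters each, and the clusters did not give the same values. At day 8 the unused cluster of Col6a5 had a log2 difference of -0.84 between AREG and PBS, and the used one -0.16, while at day 4 both lay at 0.05. For Col6a6 the unused cluster had 0.11 at day 4 and -0.32 at day 8, and the used one 0.25 and -0.11. Type VI has neighbouring, related genes here, and values for these 2 chains are uncertain to that extent.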
